A study of Mus musculus with 4 samples.

Results

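The regions described here are 5790 stretches of open chromatin that were called in NMuMG cells after 2 h of TGFβ, in neither of the other lists of the series, away from any transcription start site (TSS) and inside a protein-coding gene. They will be called TGFβ-only intragenic regions. They were 15% of the 38532 regions of the TGFβ list and 46.3% of its 12514 distal regions inside protein-coding genes. They were selected on presence in 1 list and absence from the others, on width and on position, so none of these is a finding about them. NMuMG is an epithelial cell line from the normal mammary gland of the mouse, and every sample came from this 1 line. Open chromatin was mapped by ATAC-seq, in which the Tn5 transposase inserts adapters where DNA is not wrapped around nucleosomes. A pair of samples grew in complete medium, with serum and insulin, and received vehicle or TGFβ1 at 5 ng/ml for 2 h. Before the 10 min experiment the cells were starved for 6 h, without serum or insulin. One sample of it was given vehicle and the other 5 ng/ml TGFβ1, and 1 list serves both. The 3 lists that serve these 4 samples hold no read counts and no replicates, so neither depth nor replicate spread can be read from them, and no test between conditions was possible. Read totals of the libraries, which the study gives, were not used here. Intervals in the text are 95% intervals (Wilson for a share, Newcombe for a difference of 2 shares). They cover counting of regions only, and neighbouring regions are not independent. Of 10 luminal epithelial marker genes, 5 had an open TSS in the vehicle list (Krt8, Krt18, Krt19, Elf3 and Grhl2) and 5 had none (Krt7, Cdh1, Epcam, Cldn4 and Esrp1). None of 5 basal, 5 fibroblast, 5 endothelial, 5 immune, 5 adipocyte or 5 neuronal marker genes had one there. In the TGFβ list 6 luminal markers had an open TSS, as did 1 each of the endothelial, adipocyte and neuronal markers.

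TGFβ binds a complex of type I and type II receptor kinases, which phosphorylate SMAD2 and SMAD3. These join SMAD4, enter the nucleus and bind short DNA elements, often beside other factors such as AP-1, the dimer of FOS and JUN proteins that binds enhancers throughout the genome and is fed by the MAP kinases. In mammary epithelium prolonged TGFβ drives the epithelial to mesenchymal transition (EMT), in which junctions are taken down and the actin cytoskeleton, the matrix and its adhesions are rebuilt. Enhancers lie between genes and, very often, in introns, either of the gene they act on or of an unrelated one.

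To show what such regions look like, the central bases of 9 of them are printed. In each of 9 lists of genes (described with the results below) the region with the highest score that held an AP-1 match within the central bases printed here was taken, the widest where scores were tied. All letters are the plus strand of the mm9 (NCBIM37) reference. Capitals mark AP-1 matches (TGACTCA or its reverse complement TGAGTCA) and SMAD matches (CAGACA, its reverse complement TGTCTG, or GTCTAGAC).
Bmpr1b: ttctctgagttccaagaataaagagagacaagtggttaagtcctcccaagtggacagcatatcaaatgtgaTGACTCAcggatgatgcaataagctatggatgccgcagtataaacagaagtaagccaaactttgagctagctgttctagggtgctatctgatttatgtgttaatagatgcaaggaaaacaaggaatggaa
Map3k4: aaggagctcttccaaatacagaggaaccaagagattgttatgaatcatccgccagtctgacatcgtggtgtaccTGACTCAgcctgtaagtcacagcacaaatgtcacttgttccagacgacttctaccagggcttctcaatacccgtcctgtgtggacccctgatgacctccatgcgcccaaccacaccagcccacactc
Prrx1: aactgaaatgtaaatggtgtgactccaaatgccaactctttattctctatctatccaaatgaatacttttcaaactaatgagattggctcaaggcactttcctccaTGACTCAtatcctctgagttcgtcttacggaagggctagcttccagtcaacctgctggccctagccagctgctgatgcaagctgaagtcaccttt
Magi1: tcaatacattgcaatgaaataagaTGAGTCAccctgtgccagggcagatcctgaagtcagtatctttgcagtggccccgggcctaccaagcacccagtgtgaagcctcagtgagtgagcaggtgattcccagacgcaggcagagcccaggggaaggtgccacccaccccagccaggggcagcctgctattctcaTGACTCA
Tns3: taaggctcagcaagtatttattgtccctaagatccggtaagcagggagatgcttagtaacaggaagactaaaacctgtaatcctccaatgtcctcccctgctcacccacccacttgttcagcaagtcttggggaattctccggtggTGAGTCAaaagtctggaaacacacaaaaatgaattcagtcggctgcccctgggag
Mkl2: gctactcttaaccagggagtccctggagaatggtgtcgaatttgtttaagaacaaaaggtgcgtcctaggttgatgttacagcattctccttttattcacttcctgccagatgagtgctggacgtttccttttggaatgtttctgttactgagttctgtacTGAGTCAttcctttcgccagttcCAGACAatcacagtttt
Loxl2: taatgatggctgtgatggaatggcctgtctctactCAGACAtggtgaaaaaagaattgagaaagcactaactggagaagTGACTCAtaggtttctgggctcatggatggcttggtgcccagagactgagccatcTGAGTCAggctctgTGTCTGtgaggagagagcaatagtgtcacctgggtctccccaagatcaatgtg
Wwc2: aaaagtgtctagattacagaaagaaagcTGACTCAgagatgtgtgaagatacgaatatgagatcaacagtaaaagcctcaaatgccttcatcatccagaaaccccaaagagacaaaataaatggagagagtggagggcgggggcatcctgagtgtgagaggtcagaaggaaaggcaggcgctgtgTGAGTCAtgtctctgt
Met: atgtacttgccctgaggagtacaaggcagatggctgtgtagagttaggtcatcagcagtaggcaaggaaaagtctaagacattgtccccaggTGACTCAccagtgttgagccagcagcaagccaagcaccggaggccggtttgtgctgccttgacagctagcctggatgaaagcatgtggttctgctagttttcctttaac
Every one of the 9 lies in an intron. Bmpr1b, a type I receptor for bone morphogenetic proteins, holds its window (chr3:141712155-141712355) in the first of 11 introns on the minus strand. In Map3k4, a kinase that feeds p38 and JNK, the window (chr17:12468641-12468841) lies in intron 2 of 26. Prrx1, a homeobox factor of mesenchyme, has it (chr1:165222157-165222357) in intron 1 of 3. The window of Magi1, a scaffold of epithelial junctions, (chr6:93885855-93886055) sits in intron 2 of 23 and has 2 AP-1 matches. That of Tns3, a tensin that ties integrins to actin, (chr11:8489453-8489653) is in intron 3 of 30. Map3k4, Prrx1, Magi1 and Tns3 are also on the minus strand, as is Wwc2, an upstream member of the Hippo pathway, whose window (chr8:48974675-48974875) is in intron 4 of 22 with 2 AP-1 matches. The other windows lie in plus-strand genes. Mkl2, a coactivator of serum response factor, has its window (chr16:13323912-13324112) in intron 2 of 16, where a SMAD match follows the AP-1 match. Loxl2, a lysyl oxidase that crosslinks collagen, has 2 AP-1 and 2 SMAD matches in its window (chr14:70042095-70042295), in intron 2 of 13. The window of Met, the receptor of hepatocyte growth factor, (chr6:17456905-17457105) is in intron 3 of 21. An AP-1 match was required of these windows, so they do not show how common it is. Of the 9, 7 had the score cap of 1000, and Bmpr1b and Met scored 920 and 975.

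TGFβ-only intragenic regions were narrow and scored low, as a description of what the rule selects. Their median width was 266 bp (quartiles 205 and 362 bp, range 150 to 2015 bp) and together they covered 1.82 Mb. Distal intragenic regions of all 3 lists (n = 3657) had a median width of 477 bp, and those of the TGFβ and 10 min lists alone (n = 2380) of 318 bp. The score is the authors' scaled irreproducible discovery rate, which runs from 540 to a cap of 1000. Its median was 701 (quartiles 611 and 836) in TGFβ-only intragenic regions, and 508 of them were at the cap (8.77%). Of the regions of all 3 lists 69.9% were at the cap, and of those of the TGFβ and 10 min lists 25.7%. Narrow intervals prevailed, yet 2042 of the 5790 (35.3%) had more than 1 summit, and 220 (3.80%) were joined from several intervals.

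**Figure D1:**
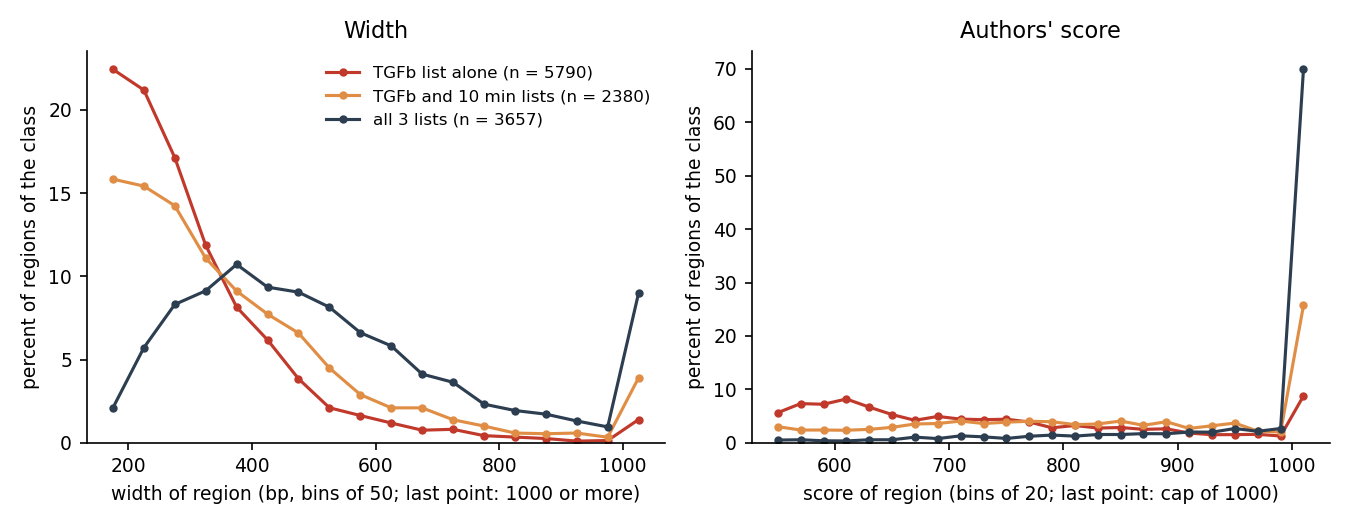
Percent of distal regions inside genes by width (left, bp) and by the authors' score (right) for TGFβ-only regions (red), regions of the TGFβ and 10 min lists (orange) and regions of all 3 lists (dark). Most TGFβ-only regions lie below 362 bp, and 8.77% of them reach the cap, against 69.9% of the regions of all 3 lists.

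Few of them sat at the edge of the rule in their gaps to other regions or to a TSS, but many were near the minimum width. Their number also depends on how many regions the TGFβ list is allowed. It was 924 with that list reduced to its best-scoring regions at the length of the vehicle list. There were 246 under 160 bp wide, and 1533 TGFβ intervals narrower than 150 bp would otherwise have met it. The closest vehicle region lay 13 bp away, with 28 TGFβ-only intragenic regions under 1000 bp from one, while the closest 10 min region lay 17 bp away, with 87 under 1000 bp. The smallest overlap that made a distal intragenic region shared with vehicle was 27 bp. Vehicle intervals too narrow to be kept overlapped 27 of the 5790 (0.466%), and such 10 min intervals overlapped 30 (0.518%). At the TSS limit the nearest was 1003 bp from a TSS, 41 lay under 1100 bp, and 728 otherwise matching regions were left out because they touched a TSS window. In width 22.4% lay between the minimum of 150 bp and 200 bp. The median gap to the nearest vehicle region was 22.9 kb (quartiles 8.95 and 55.7 kb), and to the nearest 10 min region 16.9 kb. Another region of the TGFβ list lay within 10 kb of 46.1% of them, and another TGFβ-only intragenic region within 10 kb of 17.1%. Whether chromatin there was closed under vehicle or was open but below the calling threshold cannot be told apart in these lists.

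Inside genes, most TGFβ-only regions lay in introns. Introns held 94.0% of their centres (95.1% for regions of all 3 lists, 93.8% of all eligible positions inside genes on a 500 bp grid). Coding exons held 154 (2.66%, 2.28 to 3.11%), compared with 1.78% (1.40 to 2.26%) for regions of all 3 lists and 2.85% of eligible positions. The share in 3′ untranslated regions was 2.57% (149 regions, 2.20 to 3.01%), compared with 2.32% (1.88 to 2.86%). Of those in an intron of the main transcript, the first intron held 32.6% (31.4 to 33.9%), more than the 25.1% of eligible positions that lie there. The regions of all 3 lists had 34.2% in the first intron, a difference of -1.60 percentage points whose interval (-3.67 to 0.458) includes 0. Split by distance from the nearest TSS, the share in the first intron was 40.5% at 1 to 10 kb, 31.3% at 10 to 50 kb and 19.0% beyond, and in each class the interval of the difference from regions of all 3 lists included 0. The median distance to a TSS was 14.5 kb (quartiles 5.90 and 34.5 kb), and 355 (6.13%) lay over 100 kb from any TSS. The share of distal intragenic TGFβ regions that were TGFβ-only ran from 38.3% on chromosome 19 (34.2 to 42.6%) to 56.8% on chromosome X (50.8 to 62.5%). It was 46.2% outside genes, where 6958 of 15070 distal regions were TGFβ-only.

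Sequence was not used by the rule, and SMAD and AP-1 were the 2 motifs with the highest shares. The SMAD element was found within 200 bp of the centre of 2583 TGFβ-only intragenic regions (44.6%, 43.3 to 45.9%), searched on both strands. Windows moved by 10 kb inside the same gene, clear of every region and TSS, had it in 33.2% (n = 8916 windows, 34.5% after weighting to the same GC content). The SMAD letters were thus common outside the regions too. Several rarer elements described below, such as TEAD (10.2% against 5.44%), exceeded moved windows by a larger factor. Regions of all 3 lists had SMAD in 37.2%, so that TGFβ-only intragenic regions were 7.37 points higher (5.34 to 9.38), on 19 of 20 chromosomes. They were also 7.26 points above regions of the TGFβ and 10 min lists (4.92 to 9.57). The AP-1 element was found in 2230 of them (38.5%, 37.3 to 39.8%) against 6.25% of moved windows. It was commoner still in regions of all 3 lists (47.1%), with a difference of -8.60 points (-10.6 to -6.55) that was positive on 1 of 20 chromosomes. Against regions of the TGFβ and 10 min lists the difference in AP-1 was -1.28 points (-3.62 to 1.05), which includes 0. Over all 38532 TGFβ regions, promoters included, SMAD was in 35.0% and AP-1 in 32.1%. With the TGFβ list reduced to its best-scoring regions at the length of the vehicle list, the AP-1 difference from regions of all 3 lists turned to 3.24 points (-0.455 to 6.90), while SMAD remained higher. Against TGFβ-only distal regions outside genes, the difference was -1.47 points for AP-1 (-3.17 to 0.235) and 0.993 points for SMAD (-0.738 to 2.72), and both intervals include 0.

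**Figure D2:**
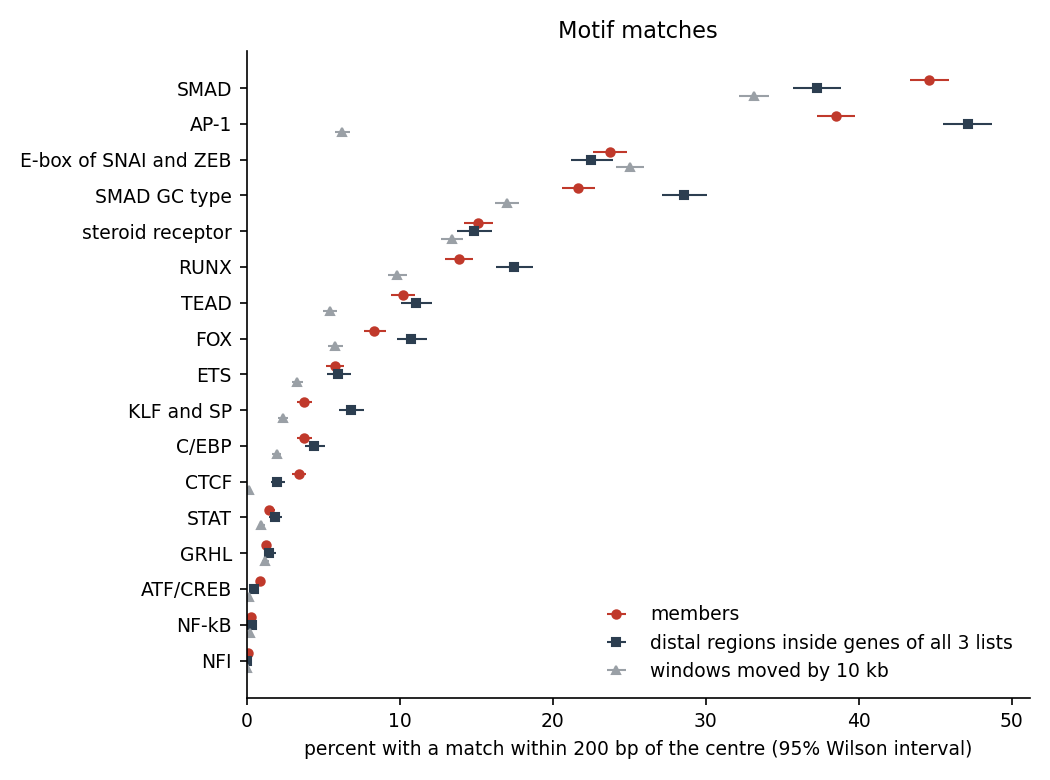
Percent of windows with a motif match within 200 bp of the centre, with 95% Wilson intervals, for TGFβ-only intragenic regions (members, red), distal intragenic regions of all 3 lists (dark squares) and windows moved by 10 kb (grey triangles). SMAD (44.6% against 37.2%) is higher in TGFβ-only regions and AP-1 (38.5% against 47.1%) lower, and both lie above the moved windows.

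Other factors with short elements gave smaller shares. TEAD (ACATTCC), which binds with YAP and TAZ of the Hippo pathway, matched 10.2% of TGFβ-only intragenic regions, 11.05% of regions of all 3 lists and 5.44% of moved windows, and over all TGFβ regions 8.75%. The difference from regions of all 3 lists includes 0 (-2.14 to 0.426 points), and against regions of the TGFβ and 10 min lists it was 2.18 points (0.798 to 3.49). RUNX (TGTGGTT) matched 13.9%, below the 17.5% of regions of all 3 lists (difference -3.62 points, -5.15 to -2.12), with 9.84% in moved windows and 12.4% over all TGFβ regions. FOX (TGTTTAC) matched 8.36%, the ETS element (ACCGGAAGT with 1 mismatch) 5.75%, C/EBP (TTGCGCAA, TTGCATCA or TTGCACAA) 3.73% and KLF and SP factors (GGGCGGG) 3.73%. Their shares in moved windows were 5.78%, 3.30%, 1.963% and 2.36%, and over all TGFβ regions 7.71%, 8.62%, 3.55% and 17.6%. Elements of the EMT repressors and of epithelial GRHL factors were no commoner than in moved windows beyond their intervals. The E-box of SNAI and ZEB proteins (CAGGTG) matched 23.7% against 25.04% of moved windows (28.7% GC-weighted, 24.1% of all TGFβ regions), and GRHL (AACCGGTT or AACTGGTT) 1.26% against 1.22% (1.20% of all). Steroid receptors (ACANNNTGT) matched 15.1% against 13.4% (12.0% of all), and STAT (TTCCNGGAA) 1.49% against 0.976% (1.68% of all). The rarest were ATF/CREB (TGACGTCA, 50 regions, 0.864%, 1.40% of all TGFβ regions), NF-kB (18 regions, 0.311%, 0.394% of all) and NFI (TTGGCNNNNNGCCAA, 7 regions, 0.121%, 0.109% of all). In regions of all 3 lists ATF/CREB matched 0.492%, a difference of 0.371 points (0.0190 to 0.699). A GC-rich SMAD element (GGCGC or GGCCG) matched 21.7%, against 28.6% of regions of all 3 lists, 20.9% of GC-weighted moved windows and 41.3% of all TGFβ regions, and was 2.14 points above TGFβ-only regions outside genes (0.735 to 3.56). After weighting to the same GC content those outside had it in 21.3%. These are matches of letters, not bound sites, and some share letters. Matches of SMAD overlapped those of steroid receptors in 62 of the 417 regions with both and those of the E-box in 28 of 599, matches of the GC-rich SMAD element overlapped those of KLF and SP factors in 7 of 86, and matches of AP-1 and C/EBP overlapped in none of 86.

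The positions of the matches around the centres of the regions differed between motifs. Per kb of sequence, AP-1 matches fell from 2.62 within 20 bp of the centre to 0.289 at 180 to 200 bp in TGFβ-only intragenic regions. In regions of all 3 lists, which are wider, they fell from 2.45 to 0.554. SMAD matches were also concentrated toward the centre of TGFβ-only intragenic regions, with 2.02 per kb within 20 bp and 1.32 per kb at 180 to 200 bp. With an upper quartile of width of 362 bp, that last distance lies outside most of these regions. In regions of all 3 lists SMAD matches ran between 1.10 and 1.35 per kb over the same distances, with no peak at the centre. The excess of SMAD over regions of all 3 lists was thus largest at the centre, with 2.02 against 1.15 per kb within 20 bp. It was smaller but still present at 180 to 200 bp, with 1.32 against 1.10 per kb. No test was run on these profiles.

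**Figure D3:**
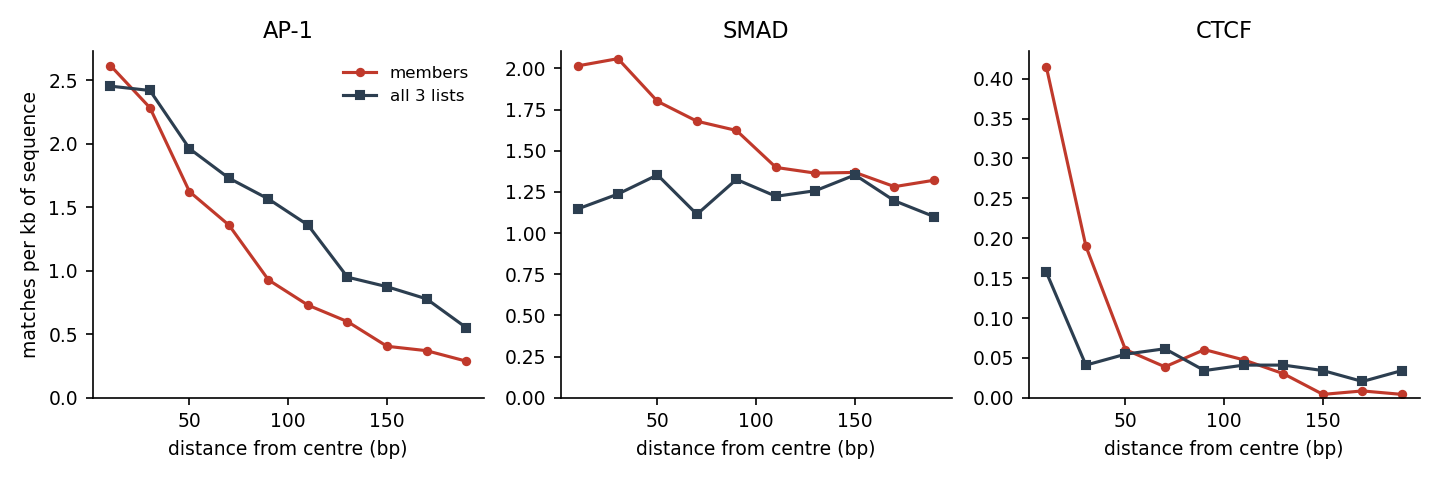
Matches per kb of sequence against distance from the centre of the region (bp, bins of 20 bp) for AP-1, SMAD and CTCF, in TGFβ-only intragenic regions (members, red) and distal intragenic regions of all 3 lists (dark). SMAD density falls from 2.02 to 1.32 per kb in the former and is level in the latter, and AP-1 falls steeply in both.

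Of the TGFβ-only intragenic regions, 1038 (17.9%, 17.0 to 18.9%) held both elements, against 2.15% of moved windows. SMAD matched 46.5% of those with AP-1 and 43.4% of those without, a difference of 3.15 points (0.517 to 5.78). In TGFβ-only intragenic regions the elements were a median of 65 bp apart (quartiles 29 and 132 bp), and 189 of the 1038 pairs (18.2%) were within 20 bp. In the wider regions of all 3 lists the median was 87 bp, and 15.2% were within 20 bp. The letters of the elements themselves overlapped in 45 of the 1038. At least 2 AP-1 matches were found in 335 (5.79%), whose median width was 310 bp and of which 17.3% were at the score cap, compared with 255 bp and 6.12% where there was none. At least 1 of AP-1, SMAD, TEAD and RUNX was present in 73.4% (72.2 to 74.5%), compared with 45.9% of moved windows and 75.5% of regions of all 3 lists.

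Because TGFβ-only intragenic regions scored lower and were narrower than those of all 3 lists, both elements were read by score and width. AP-1 rose through every band of score. It matched 28.8% of regions scoring 540 to 599, 34.0% at 600 to 699, 40.6% at 700 to 799, 41.9% at 800 to 899, 48.3% at 900 to 999 and 57.1% (52.7 to 61.3%) at the cap. SMAD stayed between 42.0% and 43.1% up to 899 and then reached 51.4% and, at the cap, 59.1% (54.7 to 63.2%). Median width went from 228 bp in the lowest band to 402.5 bp at the cap. At the cap, where the regions of all 3 lists numbered 2556, TGFβ-only intragenic regions were higher for both elements, by 5.52 points for AP-1 (57.1% against 51.6%, 0.769 to 10.2) and by 20.3 points for SMAD (59.1% against 38.8%, 15.6 to 24.9, on 18 of 20 chromosomes). The AP-1 deficit seen over all scores was therefore not seen among regions at the cap. Among regions of 400 bp or more, SMAD was 15.0 points higher (11.4 to 18.5) and AP-1 lower (difference -4.45 points, -7.97 to -0.901). At 250 to 400 bp the differences were 12.3 (8.71 to 15.9) and -7.35 points (-11.0 to -3.64). Below 250 bp, where regions of all 3 lists numbered 286, both intervals included 0.

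**Figure D4:**
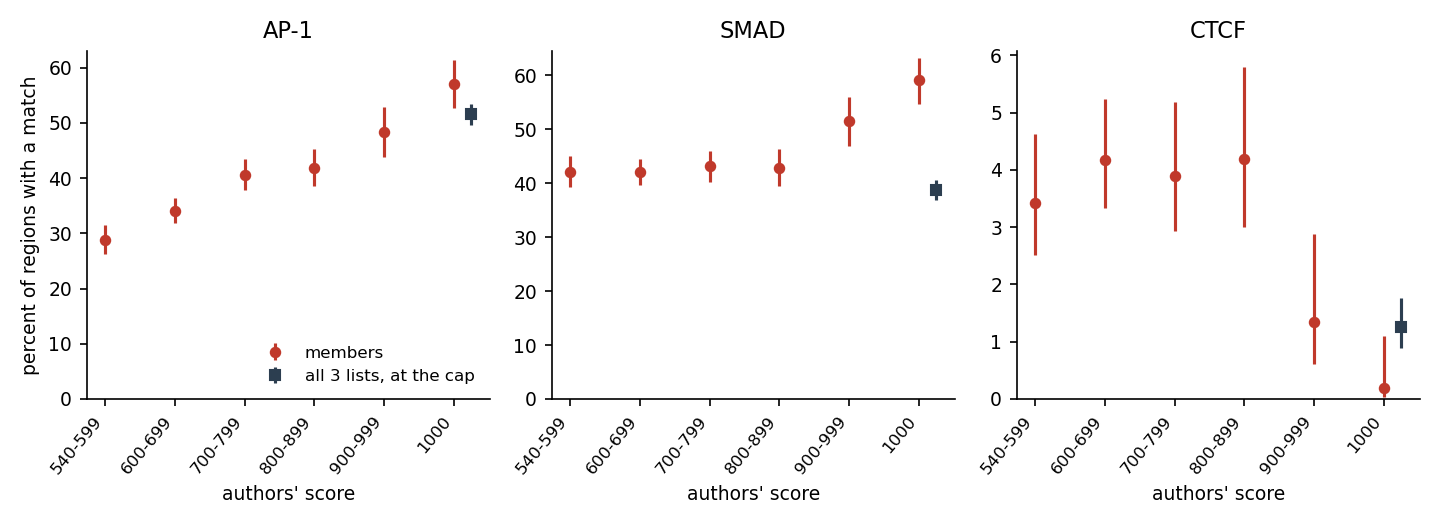
Percent of TGFβ-only intragenic regions with an AP-1, SMAD or CTCF match in 6 bands of the authors' score (red, 95% Wilson intervals), with distal intragenic regions of all 3 lists at the cap of 1000 beside them (dark squares). AP-1 climbs from 28.8% to 57.1%, SMAD is level up to 899 and reaches 59.1%, and CTCF falls to 1 of 508 regions at the cap.

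CTCF, the factor that anchors chromatin loops and has a long element, ran the other way. It matched 197 TGFβ-only intragenic regions (3.40%, 2.97 to 3.90%), 17 of 8916 moved windows (0.191%) and 3.35% of all TGFβ regions. That was 1.41 points above the regions of all 3 lists (2.00%, difference 0.738 to 2.05, higher on 18 of 20 chromosomes) and below the regions of the TGFβ and 10 min lists (7.10%, difference -3.70 points, -4.88 to -2.61). TGFβ-only regions outside genes had it in 3.65%, and the interval of the difference (-0.887 to 0.401 points) includes 0. At the score cap 1 of 508 TGFβ-only intragenic regions had it (0.197%, 0.0348 to 1.11%), compared with 3.42 to 4.19% in the bands up to 899. The share at 900 to 999 was 1.34%, so the drop by score began only there. Among TGFβ-only intragenic regions CTCF matches were also commoner in narrow ones. They matched 7.73% (6.47 to 9.22%) of regions up to the lower quartile of width and 1.17% (0.733 to 1.87%) of those from the upper quartile on. In the first intron the share was 1.78%, and in later introns 4.10%, a difference of -2.33 points (-3.21 to -1.36), with the first intron higher on 1 of 20 chromosomes. AP-1, SMAD, TEAD and RUNX did not differ beyond their intervals between first and later introns.

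A total of 3508 of 22350 protein-coding genes (15.7%) hosted a TGFβ-only intragenic region, and 1236 (5.53%) hosted at least 2. Most hosts, 2272, had 1, and 142 had 5 or more. Hosts were long, with a median of 76.4 kb compared with 11.6 kb for genes without. In 1764 hosts (50.3%) every distal TGFβ region of the gene was TGFβ-only, and 1010 (28.8%) had no vehicle region in the body or at a TSS. The remainder carried other open chromatin as well, and 1256 (35.8%) also held a distal region of all 3 lists. A host with only 1 distal TGFβ region meets the first count by definition. The vehicle list entered the rule, so these shares are a description.

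To ask whether these regions open in genes that were already accessible, the promoters of hosts were compared with those of other genes. The vehicle list also entered the rule, through other regions, so the shares are a description. A vehicle region lay at a TSS of 1896 of the 3508 hosts (54.0%, 52.4 to 55.7%) and of 38.6% of other genes, a difference of 15.5 points (13.7 to 17.3). The difference depended on gene length. It included 0 in genes up to 10 kb (interval -4.20 to 11.9) and at 10 to 30 kb (-4.34 to 3.91). It was 3.79 points at 30 to 100 kb (0.678 to 6.86), 13.5 points at 100 to 300 kb (8.96 to 18.001) and 31.3 points in genes over 300 kb (23.7 to 37.7), where 41.7% of hosts and 10.4% of other genes had an open promoter. In those longest genes it was 13 points when peaks scoring below the median of their list were left out. Per Mb of gene body outside TSS windows there were 7.93 TGFβ-only regions in genes with a promoter open in vehicle. There were 8.37 where the promoter was open in the TGFβ list but not in vehicle, and 4.36 where it was open in neither. Regions of all 3 lists had 5.63, 5.54 and 2.12 per Mb. Both kinds were thus denser in genes with a promoter open in either complete-medium list, whether or not it was open in vehicle. As a share of distal TGFβ regions, TGFβ-only regions were 43.6% where the promoter of the host was open in vehicle and 50.3% where it was not, a difference of 6.72 points (4.94 to 8.50). Absence from the vehicle list defines TGFβ-only regions, so this difference too is a description. AP-1 matched 40.01% of TGFβ-only regions in hosts with an open promoter and 36.6% in the rest (difference 3.45 points, 0.925 to 5.97), and CTCF 2.71% and 4.30%. SMAD did not differ beyond its interval (44.6% and 44.7%, difference -2.71 to 2.45 points). Hosts of at least 2 had AP-1 in 39.99% of their regions and hosts of 1 in 36.2% (difference 3.83 points, 1.26 to 6.38).

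**Figure D5:**
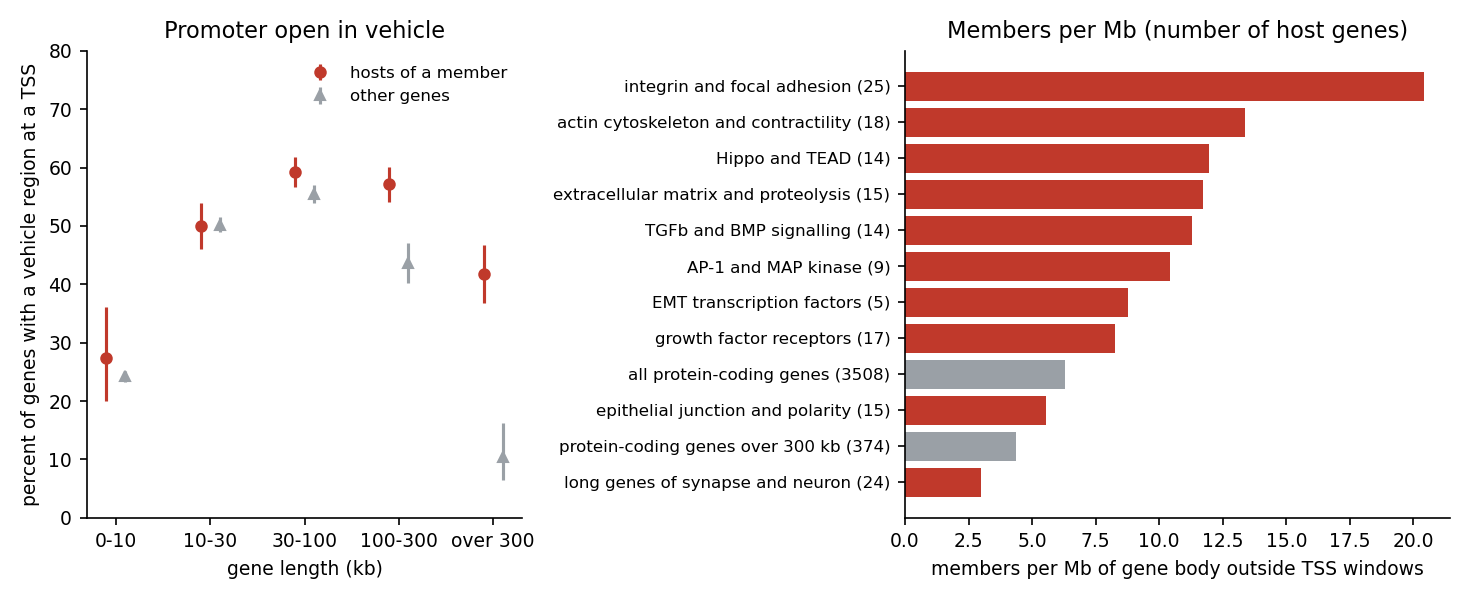
Left, percent of hosts (red) and of other protein-coding genes (grey) with a vehicle region at a TSS, by gene length in kb, with 95% Wilson intervals; in genes over 300 kb it is 41.7% and 10.4%. Right, TGFβ-only intragenic regions per Mb of gene body outside TSS windows for each list of genes, with the number of host genes in brackets, from 20.4 for integrin and focal adhesion genes to 2.98 for long neuronal genes, with all protein-coding genes (6.28) and those over 300 kb (4.35) in grey.

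The genes with the most TGFβ-only regions were very long, and some were gene models that span others. Gm20388, a model of 4435 kb on chromosome 8 that holds 72 other protein-coding genes, overlapped 69 vehicle, 155 TGFβ and 117 10 min regions, and 47 were TGFβ-only. It is a locus rather than a gene, and none of the 47 reached the score cap. Fgfr2, annotated here over 3009 kb with 31 other genes inside, had 19, none within its main transcript, and Arfip1, annotated over 1391 kb, had 11, also none within it. Copy number of these loci in this line was not tested. Of the ordinary genes, Macrod2, an ADP-ribose hydrolase gene, overlapped 14 vehicle, 38 TGFβ and 16 10 min regions, and 21 of the 38 were TGFβ-only, 12 with SMAD. Pde4d, a cAMP phosphodiesterase, had 15, 41 and 27 regions in the same lists, of which 15 were TGFβ-only and 9 of these had AP-1. Kirrel3, an adhesion protein of the immunoglobulin family, had 7, 22 and 5 regions with 14 TGFβ-only, and its promoter was open in none of the lists. Nckap5 had 7, 21 and 7 regions and 13 TGFβ-only ones. These genes were chosen by their number of TGFβ-only regions, so that a larger count in the TGFβ list is no finding.

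Dst, with 12, encodes dystonin, a giant linker of the cytoskeleton and of hemidesmosomes. Its 400 kb overlapped 7 vehicle, 19 TGFβ and 7 10 min regions, and of its 12 TGFβ-only regions 4 were at the score cap, 7 had AP-1 and 6 had SMAD. The widest, chr1:34118075-34119056, measured 982 bp, and the others were between 173 and 681 bp wide. Dlg2, a synaptic scaffold, had 9, 21 and 11 regions and 11 TGFβ-only ones, with its promoter open in none of the lists.

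Per length, the densest genes with at least 4 were 5330437I02Rik (5 regions, 9.37 per 100 kb), Tbc1d2 (8.73), Ap4s1 (8.34), Dcps (7.74) and Lmcd1 (7.06). 5330437I02Rik overlapped no vehicle region, no 10 min region and 5 TGFβ regions, all of them TGFβ-only, and no TSS of it was open. Tbc1d2, which acts on Rab GTPases, had 2, 6 and 2 regions in the vehicle, TGFβ and 10 min lists. Ap4s1, a subunit of an adaptor complex, Dcps, a scavenger decapping enzyme, and Lmcd1, a LIM domain protein, each had 1, 5 and 1. In these 4 genes the promoter was open in every list and each held 4 TGFβ-only regions.

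The widest TGFβ-only intragenic regions at the score cap, each joined from 2 intervals, lay in Pfkp (1651 bp), a phosphofructokinase, Lrrc16a (1629 bp), a regulator of actin capping protein, Adamts16 (1619 bp), a secreted metalloprotease, Trpc7 (1602 bp), a cation channel, and Agpat9 (1541 bp), an acyltransferase of lipid synthesis. The first 4 are on chromosome 13 and the last on chromosome 5. None had an AP-1 match within 200 bp of its centre, which in a joined region can fall between its intervals. The gap to the nearest vehicle region was between 4046 and 175009 bp in these 5.

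The genes were then read in lists written for the biology of this treatment, with earlier results of these data known. Each list is described by how many of its genes were hosts, the median number per gene and the density per Mb, beside 15.7% hosts, a median of 0 and 6.28 per Mb over all protein-coding genes. List genes are longer than most, so length classes are the other yardstick. Apart from the neuronal list, the lists described had median gene lengths of 21.6 to 82.5 kb. Over all genes of 10 to 30 kb, 10.2% were hosts, with 7.26 per Mb. At 30 to 100 kb these were 26.9% and 7.16 per Mb, and at 100 to 300 kb 56.7% and 7.24 per Mb. Genes over 300 kb had 70.8% hosts, a median of 2 and 4.35 per Mb. No list was tested. Density was not set against the other distal regions of the same genes, so a high density is not a high TGFβ-only share.

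Of 37 genes of TGFβ and BMP signalling, 14 were hosts (37.8%) of 31 TGFβ-only regions, 11.3 per Mb, with a median of 0. Ligands and their carriers come first. Ltbp1, which holds latent TGFβ in the matrix, had 9 vehicle, 20 TGFβ and 10 10 min regions, and 8 of the 20 were TGFβ-only. Of these 8, 4 had AP-1, 4 had SMAD and 2 were at the cap, at chr17:75504910-75505195 in intron 3 and chr17:75598789-75599278 in intron 5 of 33. Tgfb2 and Inhba, both ligands, had 1 each. Among receptors, Acvr1, a type I receptor, had 4, 8 and 6 regions and 3 TGFβ-only ones, Bmpr1b had 1, 3 and 1 and 2 TGFβ-only ones, both with AP-1, and Tgfbr2, Tgfbr3, Bmpr2, Acvr1b and Eng had 1 each. Tgfbr1 had none. Of the SMAD proteins 1 of the 8 in the list was a host. Smad3 had 3 vehicle, 12 TGFβ and 10 10 min regions. The 10 min list thus came close to the TGFβ list in this gene, and 3 of the 12 were TGFβ-only, the widest being chr9:63548840-63549492 at the cap. Smad7, the feedback inhibitor, had 2, 3 and 3 regions and no TGFβ-only one. Smurf1, a ubiquitin ligase for the receptors, had 3, 6 and 2 regions and 4 TGFβ-only ones. Pmepa1 and Ski, inhibitors of the pathway, had 2 each and Skil none.

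Of 34 genes of AP-1 and the MAP kinases, 9 were hosts (26.5%) of 14 regions, 10.4 per Mb, with a median of 0. None of Fos, Fosb, Fosl1, Fosl2, Jun, Junb and Jund was a host, and those genes are short. Besides Mafk, a small MAF protein, the hosts were kinases and their brakes. Map3k4 had 1 vehicle, 5 TGFβ and 1 10 min region, and 4 of the 5 were TGFβ-only, 2 of them at the cap. The one whose sequence is shown measured 643 bp and had 3 AP-1 matches within 200 bp of its centre. Dusp4, a phosphatase of MAP kinases, had 1, 3 and 1 regions with 2 TGFβ-only, and Spred2, an inhibitor of the Ras pathway, 4, 7 and 4 with 2.

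Of 24 EMT transcription factors, 5 were hosts (20.8%) of 12 regions, 8.78 per Mb, with a median of 0. Prrx1 had no vehicle, 3 TGFβ and no 10 min regions, its promoter was open in no list, and all 3 regions lay in its first intron, at chr1:165203353-165203580, chr1:165222103-165222410 and chr1:165242107-165242347. Their scores were 616, 1000 and 672. Ets1 had 4, 7 and 5 regions with 3 TGFβ-only, and Tcf4, an E protein, 1, 6 and 3 with 3, all with AP-1. Grhl2, which keeps epithelial identity, had 1, 3 and 2 with 2. Snai1, Snai2, Twist1, Zeb1 and Zeb2, the classical EMT factors, had none. Zeb1 had no vehicle, 2 TGFβ and 2 10 min regions, and Zeb2 had 2, 3 and 3.

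Of 37 genes of epithelial junctions and polarity, 15 were hosts (40.5%) of 32 regions, 5.55 per Mb, with a median of 0 and a density below that of all genes. Their median length was 47.8 kb. Of all genes of 30 to 100 kb 26.9% were hosts, and of those of 100 to 300 kb 56.7%. The list was not matched for length, so whether its share of hosts is high or low for length was not tested. Magi1 had 7 vehicle, 14 TGFβ and 7 10 min regions, with 6 TGFβ-only. Pard3, a polarity scaffold, had 6, 12 and 10 with 5, and Mllt4, the adherens junction protein afadin, 3, 9 and 4 with 4. Cdh1, which encodes E-cadherin, had 4, 7 and 5 regions. Its 3 TGFβ-only regions lay in intron 2 of 15, each with a SMAD match and none with AP-1, at chr8:109132160-109132519, chr8:109156521-109156784 and chr8:109167054-109167357. Its promoter was open in the 10 min list and in neither complete-medium list.

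Integrin and focal adhesion genes had the highest density of the 10 lists described, which does not show that more of their open chromatin was TGFβ-only. Of 35 genes, 25 were hosts (71.4%) and 18 hosted at least 2, with 74 regions, a median of 2 and 20.4 per Mb. SMAD matched 41 of the 74 (55.4%, 44.1 to 66.2%) and AP-1 34 (45.9%, 35.1 to 57.2%), and both intervals include the shares over all TGFβ-only intragenic regions (44.6% and 38.5%). The median length of these genes was 82.5 kb, and 27 of the 35 had a promoter open in vehicle. Tns1, a tensin, had no vehicle region in its body, 9 TGFβ regions and 1 10 min region, although its promoter was open in every list. Its 8 TGFβ-only regions were spread from intron 1 to intron 22 of 34, measured 202 to 495 bp and scored 545 to 901, none at the cap, and 5 had AP-1 and 6 SMAD. Nedd9, a docking protein of integrin signalling, had 3, 12 and 6 regions with 6 TGFβ-only, Tns3 7, 14 and 7 with 6, and Lpp, a LIM protein of adhesions, 9, 21 and 12 with 6. Of the integrins themselves, Itga2 had 5, Itgav and Itgb5 3 each, Itga1, Itga6, Itgb3 and Itgb6 2 each and Itga5 and Itgb1 1 each.

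Of 37 genes of the actin cytoskeleton and contractility, 18 were hosts (48.6%) of 50 regions, 13.4 per Mb, with a median of 0. Palld encodes palladin, a crosslinker of actin bundles. It had 6 vehicle, 16 TGFβ and 5 10 min regions, and 9 of the 16 were TGFβ-only, between 155 and 499 bp wide and spread from intron 1 to intron 11 of 21. Of the 9, 1 had AP-1, 3 had SMAD and 1 was at the cap, at chr8:64176590-64177048. Myo1e, a myosin of adhesions and membranes, had 9, 12 and 8 regions with 5 TGFβ-only, all in its first intron. Pdlim5, which links kinases to actin, had 5, 12 and 8 with 4, and Cald1, the gene of caldesmon, 5, 11 and 5 with 4. Mkl1 and Mkl2, coactivators of serum response factor, had 4 and 3.

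Of 40 genes of the extracellular matrix and proteolysis, 15 were hosts (37.5%) of 32 regions, 11.7 per Mb, with a median of 0. Adam12, a membrane metalloprotease, had no vehicle, 7 TGFβ and 1 10 min region, with no open promoter. Its 6 TGFβ-only regions lay 72250 to 198319 bp from any vehicle region. Tnc, which encodes the matrix protein tenascin C, had 2 TGFβ regions, both TGFβ-only and at chr4:63631069-63631388 and chr4:63675330-63675644, and none in the other lists. Col18a1 and Col4a2, basement membrane collagens, had open chromatin under vehicle. The former had 6 vehicle, 11 TGFβ and 7 10 min regions with 5 TGFβ-only, and the latter 5, 10 and 7 with 3.

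Of 29 genes of the Hippo pathway and its TEAD factors, 14 were hosts (48.3%) of 25 regions, 12.0 per Mb, with a median of 0. Wwtr1, which encodes the coactivator TAZ, had 2 vehicle, 7 TGFβ and 4 10 min regions, and 3 of the 7 were TGFβ-only. Tead1, its DNA-binding partner, had 5, 8 and 6 with 3, and Tead2, Tead3 and Tead4 had 1 each. Wwc2 had 5, 8 and 4 with 3, 2 of them at the cap, and Vgll4, a competitor of YAP and TAZ for TEAD, 6, 10 and 7 with 4, all outside its main transcript.

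Of 29 growth factor receptors, 17 were hosts (58.6%) of 53 regions, 8.25 per Mb, with a median of 1. As Fgfr2 is annotated over 31 other genes, 34 of the 53 lay within a main transcript. Ror1, a receptor of the Wnt family of ligands, had 5 vehicle, 13 TGFβ and 5 10 min regions. Of its 6 TGFβ-only regions 3 were at the cap and 5 had SMAD, and the widest, chr4:100023980-100024861 in intron 4 of 8, measured 882 bp. Met had 5, 9 and 6 regions with 3 TGFβ-only, and Nrp2, a coreceptor for semaphorins and VEGF, 4, 7 and 2 with 3. Egfr, Igf1r and Ddr2 also had 3 each.

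The lowest density was in 36 long genes of synapse and neuron, taken as a contrast, since most of them act in neurons. Of these, 24 were hosts (66.7%) of 103 regions, 2.98 per Mb, with a median of 1, and 3 of the 36 promoters were open in vehicle. The share of hosts was near the 70.8% of all genes over 300 kb. The genes of this list were longer than those, however, with a median of 938 kb against 439 kb. AP-1 matched 37.9% of the 103 (29.1 to 47.5%) and SMAD 44.7% (35.4 to 54.3%), shares whose intervals include those over all TGFβ-only intragenic regions. Besides Macrod2 and Dlg2, Dlgap2, a partner of synaptic scaffolds, had 1 vehicle, 14 TGFβ and 5 10 min regions, and 10 of the 14 were TGFβ-only, without an open promoter in any list.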

How the data were processed

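The authors ran the ENCODE ATAC-seq pipeline on the reads: alignment to mm9, peak calling with macs2 (version 2.1.2), and retention of peaks by the irreproducible discovery rate between biological replicates. The labels give 1 sample per condition. The lists deposited by the authors hold, per peak, an interval and a score, their scaled discovery rate. A score is comparable within a list. For the TGFβ 10 min sample a characteristics label gives 2 h, and the title, 10 min, was followed.

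Per the study's methods, intervals under 150 bp were dropped and neighbours under 1000 bp apart merged. Regions overlapped when they shared 1 bp. A TSS window was any annotated TSS ± 1000 bp (GENCODE vM1, mm9), and a host was a protein-coding gene whose body held the centre of the region. All intervals lay inside the mm9 chromosomes. Region counts of a gene are regions that overlap its body. The main transcript is the main coding transcript of the gene, in which introns were numbered. Motifs were searched within 200 bp of the centre on both strands. GC weighting used bins of 5 points. Computations used Python 3.11.15 and numpy 2.4.6, and the programs were tested on simulated data. Named genes were the 10 with the most TGFβ-only regions, the 5 densest with at least 4, and up to 4 per list with at least 2. Further genes of a list (for example SMAD, integrin or EMT genes) are named as its defining genes, some after their values were seen. The regions and gene lists were chosen with earlier results of these data known. Alternatives were other widths, merging, scores, TSS windows, overlaps and motif windows. One gene among the 10 and 1 gene list are not reported here. No other deposited data were used.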

Additional observations from a re-analysis of the deposited data

How the results depend on the processing

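Each choice was changed alone. The number of TGFβ-only intragenic regions, 5790, fell to 2691 with a minimum width of 300 bp, to 2429 when peaks scoring below the median of their list were left out, and to 924 with the TGFβ list reduced to its best-scoring regions at the length of the vehicle list. Their share of distal intragenic TGFβ regions (46.3%) was 39.4%, 55.3% and 17.9% in these, 49.5% with no minimum width, 47.2% when only touching intervals were merged, 49.2% when the centre had to lie in the other region, and 65.3% when the 10 min list was not consulted. AP-1 was in 45.2%, 54.7% and 53.4% for the first 3 settings and 35.6% with no minimum width, and SMAD in 50.3%, 47.8% and 55.5%, and 42.5% without the 10 min list. In motif windows of 100 and 500 bp AP-1 was in 31.5% and 46.5% and SMAD in 28.9% and 71%. The share in the first intron was 35% and 35.3% with the median score and equal length, and 29.8% with a TSS window of 5000 bp.

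Of the differences in AP-1, SMAD and first intron share from regions of all 3 lists, AP-1 and the first intron turned direction. At equal list length AP-1 was 3.24 points higher than in regions of all 3 lists (-0.455 to 6.90), against -8.60. The other alternatives gave -12.3 to -3.12, and SMAD stayed 4.44 to 17.9 points higher in all of them. AP-1 against TGFβ-only regions outside genes excluded 0 with no minimum width (-1.63) and a TSS window of 200 bp (-1.85), and the first intron against regions of all 3 lists with no minimum width (-2.33) and a TSS window of 5000 bp (-2.38). The latter difference, -1.60, was 1.25 (-2.58 to 4.98) with the median score and 1.01 (-2.64 to 4.76) at equal length. The difference in open promoters between hosts and other genes was 11.6 to 21.6 points (13 to 33.4 over 300 kb). Leaving out gene models that hold 3 or more other genes, moved windows at other window sizes, and the alternatives for promoters and named genes were added after seeing the data. The cause of these changes was not tested. No paired analysis was possible because the lists carry no replicates, and none could be left out. Absence from a list depends on depth, which the lists do not give.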
